A study of Homo sapiens with 10 samples.

Results

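The genes described here encode the enzymes that shorten fatty acids, 36 of the 62656 genes in the table. They were chosen by symbol, although earlier results of these data were known. They comprised 18 genes of the mitochondrial arm, 9 of the peroxisomal arm, 3 whose proteins are known from both compartments (ECI2, ACAD11 and AMACR) and 6 acyl-CoA thioesterases, and all 36 were found. RNA was sequenced from PC3 cells, an established line of androgen-independent human prostate cancer, in 10 libraries. In 5 of them the cells had received GW3965, a synthetic agonist of the liver X receptors (LXRs), at 1 µM for 24 h, and in the other 5 the vehicle DMSO for the same time. The labels name no engineered allele. Cells of both groups had been starved overnight beforehand and stood in RPMI-1640 medium with glutamine. The sources do not say whether the 5 replicates of a group came from separate cultures, so p-values measure the spread between these libraries, which may be technical.

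In mitochondria, an acyl-CoA dehydrogenase makes the first double bond and passes its electrons through the electron transfer flavoprotein to the respiratory chain. A hydratase, a dehydrogenase and a thiolase then release acetyl-CoA, and the shortened chain enters the next round. Peroxisomes run the same sequence on very long and branched chains, but begin with an oxidase that gives hydrogen peroxide, and they first remove one carbon from phytanic acid by alpha-oxidation. LXRs are sterol sensors known for cholesterol efflux and fatty acid synthesis, whereas fatty acid oxidation is the classical territory of the PPARs, a related family of nuclear receptors.

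The libraries held 30438856 to 41646849 reads, recovered from the steps of the RPKM values, and 12.0 to 23.2% of them came from 7SL RNA genes. The known LXR targets ABCA1, ABCG1, SREBF1 and MYLIP rose by 2.29, 2.13, 0.74 and 0.74 on the log2 scale, with adjusted p between 0.000124 and 0.00714 in limma, and no GW3965 library overlapped a DMSO library in any of the 4. Keratins KRT8, KRT18 and KRT19 were between 29.8 and 174 RPKM in every library, whereas the epithelial markers EPCAM and CDH1 were low, at 1.57 ± 0.349 and 0.249 ± 0.126 RPKM (mean ± SD, n = 5) in DMSO. The prostate antigen gene KLK3 was listed at 0 in all 10 libraries. Of 9 marker genes of leukocytes, endothelium and fibroblasts, 7 stayed below 0.08 RPKM everywhere, and the exceptions PECAM1 and COL1A1 averaged 0.604 and 0.928 RPKM. The libraries DMSO replicate 1 and GW3965 replicates 1 and 2 stood apart from the other 7 on the first principal component of the reads, which held 41.4% of the variance over 14374 genes. Their values on it were 17.9, 19.7 and 17.7, against at most 3.91 in the others, and results that rest on them are given below with and without them.

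No gene of fatty acid oxidation passed the threshold of an adjusted p of 0.05 with GW3965. The test was limma on log2(RPKM + 0.1) over 20402 genes, those averaging 0.5 RPKM or more, adjusted by Benjamini-Hochberg over all of them. It tested 33 of the 36 members and called 0 of them higher and 0 lower, while 0.157% of all tested genes (32 genes, 30 higher and 2 lower) were called. Voom on the recovered reads also called 0 members. At an unadjusted limma p under 0.05, 6 members were higher (ETFA, ECI2, ACOT9, ACADVL, ACAA2 and PHYH) and 0 were lower. Of all 20402 tested genes, 4.64% were higher and 481 genes were lower at that level. In 4 members, ETFA, ECI2, ACOT9 and ACADVL, all treated libraries were higher than all controls (12.1% of the 33), against 1.35% of all tested genes. All 4 differences were small, with fitted folds of 1.11 to 1.19. In RNA of whole cultures, a change in every cell and one in some of the cells cannot be told apart.

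The starts of 3 of these genes are shown because their groups did not overlap, so that their promoters can be read beside the values. Each is the stretch of 250 bases just before the start site in RefSeq (assembly GRCh38.p14), written 5′ to 3′ on the gene's own strand, which is the minus strand for all 3. Capitals mark GC boxes (GGGCGG on either strand, the letters bound by SP1-type factors) and CCAAT boxes (CCAAT on either strand, bound by NF-Y). ETFA lies at chr15:76311470-76311719, ECI2 at chr6:4135576-4135825 and ACOT9 at chrX:23743277-23743526.
ETFA: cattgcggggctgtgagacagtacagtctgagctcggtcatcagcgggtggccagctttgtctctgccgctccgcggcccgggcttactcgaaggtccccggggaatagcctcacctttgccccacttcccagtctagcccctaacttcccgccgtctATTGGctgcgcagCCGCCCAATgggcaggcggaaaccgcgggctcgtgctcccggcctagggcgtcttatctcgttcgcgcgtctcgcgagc
ECI2: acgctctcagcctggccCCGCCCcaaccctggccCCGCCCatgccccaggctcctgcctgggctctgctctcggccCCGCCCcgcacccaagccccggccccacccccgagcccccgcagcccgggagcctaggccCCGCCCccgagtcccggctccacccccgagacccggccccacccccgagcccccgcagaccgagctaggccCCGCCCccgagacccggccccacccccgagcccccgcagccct
ACOT9: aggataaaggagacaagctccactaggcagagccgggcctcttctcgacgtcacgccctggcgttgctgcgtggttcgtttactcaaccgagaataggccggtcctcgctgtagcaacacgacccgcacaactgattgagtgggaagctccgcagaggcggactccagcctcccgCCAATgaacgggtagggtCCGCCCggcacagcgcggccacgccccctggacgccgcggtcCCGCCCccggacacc
The ETFA stretch held 2 CCAAT boxes and 1 GC box that runs into the second of them, and 65.6% of its bases were G or C. The ECI2 stretch, before the outer of 2 RefSeq starts, held 5 GC boxes and no CCAAT box, and its G and C content was 81.6%. The ACOT9 stretch held 1 CCAAT box and 2 GC boxes. ACADVL, the remaining gene without overlap, has 2 start sites in RefSeq. The 250 bases before the outer one held neither box, and those before the inner one held 2 GC boxes, which begin at -190 and -66 from the start. None of the 3 sequences had a direct repeat that LXR or PPAR dimers are known to bind, in the strict letters searched here.

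Over the whole list, RefSeq windows of 300 bases (250 before to 50 after a start site) were found for 28 of the 36 members, 39 windows in all because some genes have several. A GC box stood in 26 of them (66.7%), against 45.0% of 35116 windows of all genes. Some windows overlap, so a box can be counted more than once. The 2 windows of ECI2 share boxes, and a window of HADHA and one of HADHB hold the same box. A CCAAT box stood in 12 (30.8%, against 34.6%). The nuclear receptor half-site AGGTCA was found in 2 member windows, one each of ACAD10 and ACOT7, a share of 5.13% against 13.8%. The strict direct repeats of AGGTCA with a spacer of 4 bases (DR4, the LXR type) or of 1 base (DR1, the PPAR type) were in 0 of the 39 windows, and in 0.0199% and 0.0228% of all windows. The sterol regulatory element, searched as TCACNCCAC, and the extended half-site of estrogen-related receptors, searched as TNAAGGTCA, were each in 0 member windows, against 1.13% and 0.951% of all. All motifs were searched on both strands, the half-site is contained in the direct repeats and in the extended half-site, and absence of these letters from a short window says nothing about binding elsewhere.

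**Figure D1:**
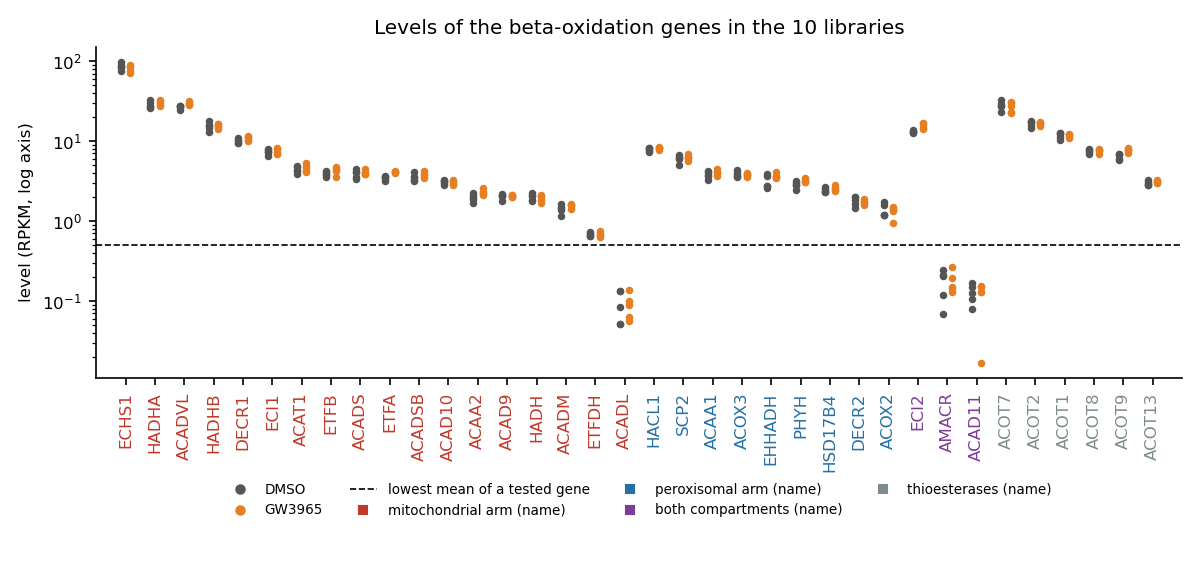
Levels of all 36 genes in RPKM on a log axis, 1 point per library, DMSO in grey and GW3965 in orange, with gene names coloured by arm and the dashed line at 0.5 RPKM, the lowest mean of a tested gene. The levels reach from 0.0896 RPKM for ACADL to 83.8 RPKM for ECHS1, and the points of both groups cover nearly the same range for most genes.

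The level of the genes differed far more between members than between treatments. Means over the 10 libraries ran from 0.0896 RPKM for ACADL to 83.8 RPKM for ECHS1, with a median of 3.87 RPKM over the 36 genes, against 3.11 RPKM over all tested genes. The mitochondrial arm ran to higher levels than the peroxisomal arm, whose most abundant gene, HACL1, averaged 7.98 RPKM. The median gene was nearly the same in both, at 3.87 RPKM in the mitochondrial and 3.39 RPKM in the peroxisomal arm. RPKM divides reads by a length fixed for each gene, which need not be that of the transcripts expressed, so the order between genes is uncertain. HSD17B4, for example, had 1757 to 2627 reads in the DMSO libraries, against 409 to 632 for ACOX3, but a lower RPKM. The words "most abundant" mean the highest RPKM, and the sums and shares of the arms carry the same limit. All levels below are in RPKM as mean ± SD of 5 libraries.

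The acyl-CoA dehydrogenases take the first step, each on its own chain length. ACADVL, the very long chain enzyme of the inner membrane (ENSG00000072778, chr17:7217125-7225273 on the plus strand of GRCh38), was the most abundant of them. Its levels in DMSO replicates 1 to 5 were 27.0, 27.5, 27.6, 27.2 and 24.2 RPKM, and in GW3965 replicates 1 to 5 they were 31.1, 31.3, 27.9, 29.2 and 29.02 RPKM. The groups did not overlap, but the highest DMSO and the lowest GW3965 library were close to each other, and DMSO replicate 5 lay well below the other controls. The log2 fold change was 0.15 ± 0.056 (SE), with an adjusted p of 0.563 in limma, and the exact permutation test over the 252 labellings gave a two-sided p of 0.00794, the smallest it can give. Without the 3 libraries that stood apart it was 0.11 on the log2 scale (adjusted p = 0.63 in limma).

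The other dehydrogenases were expressed at a much lower level. ACADM, the medium chain enzyme, was at 1.42 ± 0.167 in DMSO and 1.56 ± 0.0825 with GW3965, with a log2 fold change of 0.13 ± 0.094 (SE). ACADS and ACADSB, the short chain and short branched chain enzymes, were at 3.90 ± 0.427 and 3.52 ± 0.353 in DMSO and had log2 fold changes of 0.05 ± 0.082 and 0.09 ± 0.081 (SE). ACAD9, which also helps to assemble respiratory complex I, differed by 0.01 ± 0.068 from a DMSO level of 2.03 ± 0.147, and ACAD10 by -0.03 ± 0.065 from 3.07 ± 0.174. None of these 5 differences was larger than 1.5 of its standard errors, and in all 5 the groups overlapped. ACADL, the long chain enzyme, was close to silent, with 8 to 29 reads per library and a mean of 0.0896 RPKM. Its values were 0.0843, 0.133, 0.0513, 0.0510 and 0.132 RPKM in DMSO and 0.137, 0.0631, 0.0564, 0.0987 and 0.0899 RPKM with GW3965, and the exact permutation p was 1.00. ACADL was below the filter and entered no fit.

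ACAD11, a dehydrogenase known from both compartments, was also below the filter. Its values were 0.167, 0.0797, 0.105, 0.125 and 0.147 RPKM in DMSO and 0.129, 0.149, 0.152, 0.0168 and 0.129 RPKM with GW3965, from 3 to 30 reads per library, and the groups overlapped (exact permutation p = 0.802). The value of GW3965 replicate 4 was the lowest of all. ACAD11 and ACADL are thus described by their levels alone.

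The middle of the spiral adds water, oxidises again and rearranges double bonds. ECHS1, the short chain enoyl-CoA hydratase, was the most abundant gene of the whole list. Its levels in DMSO replicates 1 to 5 were 74.3, 85.7, 88.5, 97.5 and 84.1 RPKM, and with GW3965 they were 75.7, 70.2, 89.4, 87.6 and 84.6 RPKM. The 3 lowest of these 10 values belonged to the 3 libraries that stood apart, 1 of DMSO and 2 of GW3965, and the other 7 lay between 84.1 and 97.5 RPKM. The log2 fold change was -0.08 ± 0.088 (SE; adjusted p = 0.932 in limma), and without those 3 libraries -0.03. HADHA and HADHB, the 2 subunits of the trifunctional protein that carries out the last 3 steps on long chains, were at 28.6 ± 2.899 and 15.3 ± 1.81 RPKM in DMSO. With GW3965 they were at 30.1 ± 2.33 and 15.6 ± 0.921 RPKM, log2 fold changes of 0.07 ± 0.079 and 0.03 ± 0.083 (SE).

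HADHA and HADHB stand head to head on chromosome 2, with RefSeq start sites 307 bases apart on opposite strands. Their ratio within a library was 1.87 ± 0.0808 (SD, n = 5) in DMSO and 1.93 ± 0.140 with GW3965, so the subunits kept about the same proportion in both groups. HADH, the short chain hydroxyacyl-CoA dehydrogenase, was far lower than ECHS1 in RPKM, at 2.00 ± 0.190 in DMSO and 1.93 ± 0.181 with GW3965 (-0.05 ± 0.090 on the log2 scale). In reads the distance was smaller, with 772 to 1123 per DMSO library for HADH and 3277 to 4740 for ECHS1. ECI1, a mitochondrial enoyl-CoA isomerase needed for unsaturated chains, differed by 0.03 ± 0.074 from 7.31 ± 0.550 RPKM. DECR1, the dienoyl-CoA reductase that also serves unsaturated chains, had 10.5, 10.9, 9.55, 9.46 and 9.88 RPKM in the DMSO libraries and 10.3, 9.97, 10.9, 11.2 and 11.7 RPKM in the GW3965 libraries. The 2 groups of DECR1 overlapped between 9.97 and 10.9 RPKM, and its log2 fold change was 0.11 ± 0.063 (SE; adjusted p = 0.816 in limma).

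ECI2, an enoyl-CoA isomerase of mitochondria and peroxisomes (ENSG00000198721, chr6:4115689-4135597 on the minus strand), stood out among the middle steps. Its levels were 13.0, 12.9, 12.8, 13.7 and 12.9 RPKM in DMSO and 14.1, 14.4, 15.7, 16.8 and 16.9 RPKM with GW3965. The 5 controls were tightly grouped apart from DMSO replicate 4, the highest of them, and every GW3965 library lay above all of them. The 2 GW3965 libraries that stood apart, replicates 1 and 2, were the lowest of the treated group. The log2 fold change was 0.25 ± 0.063 (SE), the unadjusted limma p was 0.00217 and the adjusted p 0.242, and the exact permutation p was 0.00794. Without the 3 libraries that stood apart, it was 0.33 on the log2 scale (adjusted p = 0.118 in limma). Set against its paralog ECI1, the ratio of ECI2 to ECI1 within a library was 1.67 to 2.01 in DMSO and 1.96 to 2.44 with GW3965, so these ratios overlapped. On the opposite strand, C6orf201 shares 27.1% of the exon bases of ECI2, and its own level was 0.112 to 0.334 RPKM.

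The thiolases release acetyl-CoA. SCP2, sterol carrier protein with a peroxisomal thiolase in its longer product, was the most abundant of the 4. It had 6.71, 6.33, 5.92, 5.06 and 6.10 RPKM in DMSO and 6.15, 5.69, 6.16, 6.38 and 6.79 RPKM with GW3965, which overlapped over nearly the whole range (log2 fold change 0.05 ± 0.080, SE). Part of its exons, 15.4% of the bases, is shared with the pseudogene TUBBP10. ACAT1, the acetoacetyl-CoA thiolase that also serves ketone bodies, was at 4.43 ± 0.402 in DMSO and 4.63 ± 0.521 with GW3965, and ACAA1, the classical peroxisomal thiolase, at 3.82 ± 0.379 and 4.02 ± 0.288. Their log2 fold changes were 0.06 ± 0.089 and 0.08 ± 0.080 (SE).

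ACAA2, the mitochondrial acetyl-CoA acyltransferase, had the highest fold change of the 4 thiolases. It had 2.04, 1.95, 2.25, 1.90 and 1.69 RPKM in DMSO and 2.14, 2.30, 2.24, 2.16 and 2.57 RPKM with GW3965. All 5 treated libraries lay above the DMSO mean, but DMSO replicate 3 lay above 3 of them. Its log2 fold change came to 0.21 ± 0.086 (SE; unadjusted p = 0.0328, adjusted p = 0.635 in limma), and the exact permutation p was 0.0317.

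Electrons from the dehydrogenases pass to a flavoprotein of 2 subunits, ETFA and ETFB, and from there to the ubiquinone oxidoreductase ETFDH. ETFA (ENSG00000140374, chr15:76215355-76311472 on the minus strand) had the lowest unadjusted p of the whole list. It was at 3.61, 3.55, 3.55, 3.32 and 3.18 RPKM in DMSO and at 4.06, 4.06, 4.14, 3.98 and 4.21 RPKM with GW3965. The treated libraries were the tighter group, and even the highest control lay below all of them. This gave a log2 fold change of 0.24 ± 0.055 (SE), with an unadjusted limma p of 0.00102, an adjusted p of 0.183 and an exact permutation p of 0.00794. Without the 3 libraries that stood apart, it was 0.27 (adjusted p = 0.280 in limma).

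The partner subunit ETFB, the most abundant of the 3 genes, had 4.07, 3.93, 3.78, 4.18 and 3.56 RPKM in DMSO and 3.55, 4.42, 4.30, 4.22 and 4.68 RPKM with GW3965. Of the treated libraries, 4 were above all controls and replicate 1 was the lowest of all 10. Its log2 fold change was 0.11 ± 0.079 (SE; adjusted p = 0.860 in limma). The ratio of ETFA to ETFB within a library was 0.884 ± 0.0533 (SD, n = 5) in DMSO and 0.974 ± 0.0974 with GW3965, and these ratios overlapped. ETFDH was the lowest of the tested members, at 0.678 ± 0.0391 RPKM in DMSO and 0.683 ± 0.0389 with GW3965, a log2 fold change of 0.01 ± 0.12 (SE). The ratio of ETFA to ETFDH was 5.08 ± 0.2504 (SD, n = 5) in DMSO and 6.01 ± 0.413 with GW3965. These ratios did not overlap, although the highest control (5.482) and the lowest treated library (5.484) nearly met. Neither ratio was tested.

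**Figure D2:**
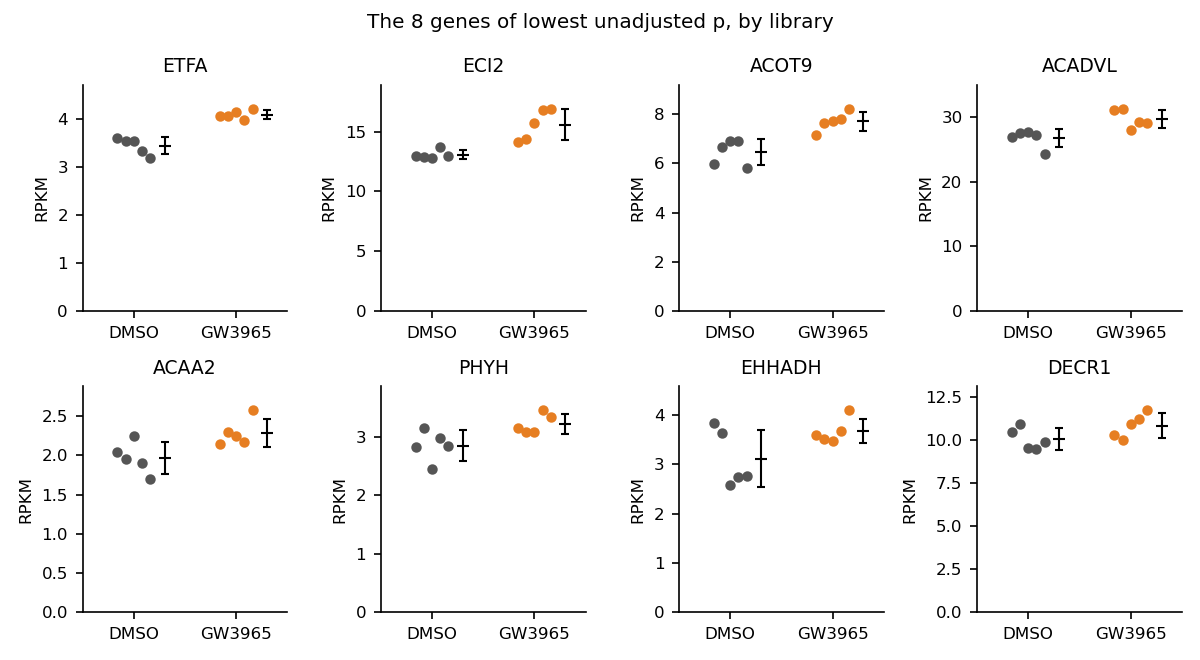
RPKM of the 8 members of lowest unadjusted p in each of the 10 libraries, replicates 1 to 5 from left to right in each group, with the mean ± SD of the group beside them and axes that start at 0. In ETFA, ECI2, ACOT9 and ACADVL the treated libraries are all higher than the controls, while in ACAA2, PHYH, EHHADH and DECR1 the groups overlap.

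In peroxisomes, an oxidase takes the first step and multifunctional enzymes the next. ACOX3, a branched chain acyl-CoA oxidase, was the most abundant of the core genes, with 4.04, 3.63, 3.51, 4.32 and 3.81 RPKM in DMSO and 3.78, 3.77, 3.50, 4.03 and 3.90 RPKM with GW3965. The treated libraries lay within the range of the controls but for 1 at 3.50 RPKM, and the log2 fold change was -0.02 ± 0.069 (SE; adjusted p = 0.981 in limma). ACOX2, the other branched chain oxidase, was at 1.37 ± 0.258 in DMSO and 1.31 ± 0.223 with GW3965, with a single low treated library of 0.931 RPKM (replicate 1), from 121 to 232 reads per library. Its log2 fold change of -0.06 ± 0.15 (SE) had the largest error of the 33 genes. HSD17B4, the D-bifunctional protein that handles branched chains and bile acid precursors, differed by 0.07 ± 0.072 from 2.43 ± 0.169 RPKM, and DECR2, the peroxisomal dienoyl-CoA reductase, by -0.05 ± 0.098 from 1.80 ± 0.241 RPKM.

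EHHADH, the bifunctional enzyme of straight chains and a textbook PPARα target, was at 3.84, 3.64, 2.58, 2.74 and 2.75 RPKM in DMSO and 3.59, 3.51, 3.46, 3.67 and 4.09 RPKM with GW3965. The controls fell into a higher pair, replicates 1 and 2, which lay within the treated range, and 3 libraries that lay below it. It had a log2 fold change of 0.25 ± 0.11 (SE; unadjusted p = 0.0526, adjusted p = 0.721 in limma), and the exact permutation p was 0.111. Its estimate was among the highest of the list, and its error was the larger beside that of ETFA or ECI2.

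Alpha-oxidation removes 1 carbon from phytanic acid before beta-oxidation can begin. HACL1, the lyase of this route, had 8.18, 7.94, 7.21, 8.23 and 7.57 RPKM in DMSO and 8.18, 7.65, 8.12, 8.37 and 8.29 RPKM with GW3965, so the groups overlapped (log2 fold change 0.05 ± 0.055, SE). PHYH, the phytanoyl-CoA hydroxylase, had 2.83, 3.15, 2.45, 2.97 and 2.85 RPKM in DMSO and 3.15, 3.07, 3.08, 3.45 and 3.34 RPKM with GW3965. DMSO replicate 2 reached the level of the treated libraries, and the other 4 controls lay below all of them. The log2 fold change of PHYH was 0.17 ± 0.074 (SE; unadjusted p = 0.0390, adjusted p = 0.677 in limma), with an exact permutation p of 0.0238.

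AMACR, the racemase that readies branched chains for oxidation and a well known tissue marker of prostate cancer, was listed at a very low level in PC3. Its values were 0.207, 0.120, 0.0686, 0.212 and 0.242 RPKM in DMSO and 0.149, 0.265, 0.146, 0.195 and 0.128 RPKM with GW3965, from 9 to 46 reads per library. The groups overlapped, with an exact permutation p of 0.794, and the gene was below the filter. Of its exon bases, 54.98% are shared with the readthrough gene C1QTNF3-AMACR, which reached at most 0.0515 RPKM, and the part of this overlap in the level was not tested.

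Thioesterases free the fatty acid from coenzyme A and so act beside the pathway. ACOT7, a cytosolic and mitochondrial enzyme, was the most abundant, with 23.3, 27.5, 28.9, 32.5 and 27.6 RPKM in DMSO and 23.3, 22.7, 30.2, 30.4 and 27.6 RPKM with GW3965. As with ECHS1, its 3 lowest values were those of the 3 libraries that stood apart, 22.7 to 23.3 RPKM against 27.5 to 32.5 RPKM in the other 7. Its log2 fold change came to -0.06 ± 0.11 (SE), and it turned to 0.01 without these libraries. The peroxisomal ACOT8 and the mitochondrial ACOT13 were at 7.50 ± 0.416 and 2.96 ± 0.184 RPKM in DMSO, with log2 fold changes of 0.01 ± 0.060 and 0.06 ± 0.061 (SE). Of the exon bases of ACOT8, 35.3% are shared with SNX21 on the opposite strand.

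ACOT9, a mitochondrial thioesterase (ENSG00000123130, chrX:23702253-23766475 on the minus strand), had the highest fitted fold of the list. It was at 5.97, 6.68, 6.91, 6.91 and 5.81 RPKM in DMSO and at 7.14, 7.66, 7.73, 7.80 and 8.22 RPKM with GW3965. The GENCODE gene reaches further upstream than the RefSeq start shown above. The groups did not overlap, and the treated library nearest to the controls was replicate 1, one of the 3 that stood apart. This gave a log2 fold change of 0.25 ± 0.067 (SE), with an unadjusted limma p of 0.00307, an adjusted p of 0.279 and an exact permutation p of 0.00794. Without the 3 libraries that stood apart it was 0.27 (adjusted p = 0.319 in limma).

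ACOT1 and ACOT2, a cytosolic and a mitochondrial enzyme that lie 30506 bases apart on chromosome 14, are near copies of each other and have to be read together. The first 120 coding bases of ACOT1 and the matching bases 187 to 306 of ACOT2 (GENCODE 29, plus strand) are shown for this reason, with the base that differs between them in capitals.
ACOT1: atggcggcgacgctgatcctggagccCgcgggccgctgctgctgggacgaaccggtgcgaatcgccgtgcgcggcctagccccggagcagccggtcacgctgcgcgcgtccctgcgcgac
ACOT2: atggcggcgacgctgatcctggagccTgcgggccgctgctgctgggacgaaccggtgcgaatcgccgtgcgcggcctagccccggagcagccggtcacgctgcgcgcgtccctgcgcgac
Over the 1266 aligned coding bases 1253 were identical (98.97%), with an identical run of 469 bases. Of all windows of 50 bases, the read length, in the transcripts of ACOT1, 53.1% also occur in ACOT2. A read from such a window cannot be given to 1 gene, so both levels are uncertain. ACOT1 had 12.3, 11.1, 12.4, 12.7 and 10.4 RPKM in DMSO and 11.4, 10.9, 11.9, 12.1 and 12.0 RPKM with GW3965. ACOT2 had 17.2, 15.9, 17.4, 18.04 and 14.5 RPKM in DMSO and 15.2, 16.3, 17.1, 16.7 and 16.6 RPKM with GW3965. Both pairs of groups overlapped, and the log2 fold changes were -0.01 ± 0.066 and -0.02 ± 0.066 (SE). The ratio of ACOT2 to ACOT1 was 1.41 ± 0.0173 (SD, n = 5) in DMSO and 1.41 ± 0.0599 with GW3965.

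**Figure D3:**
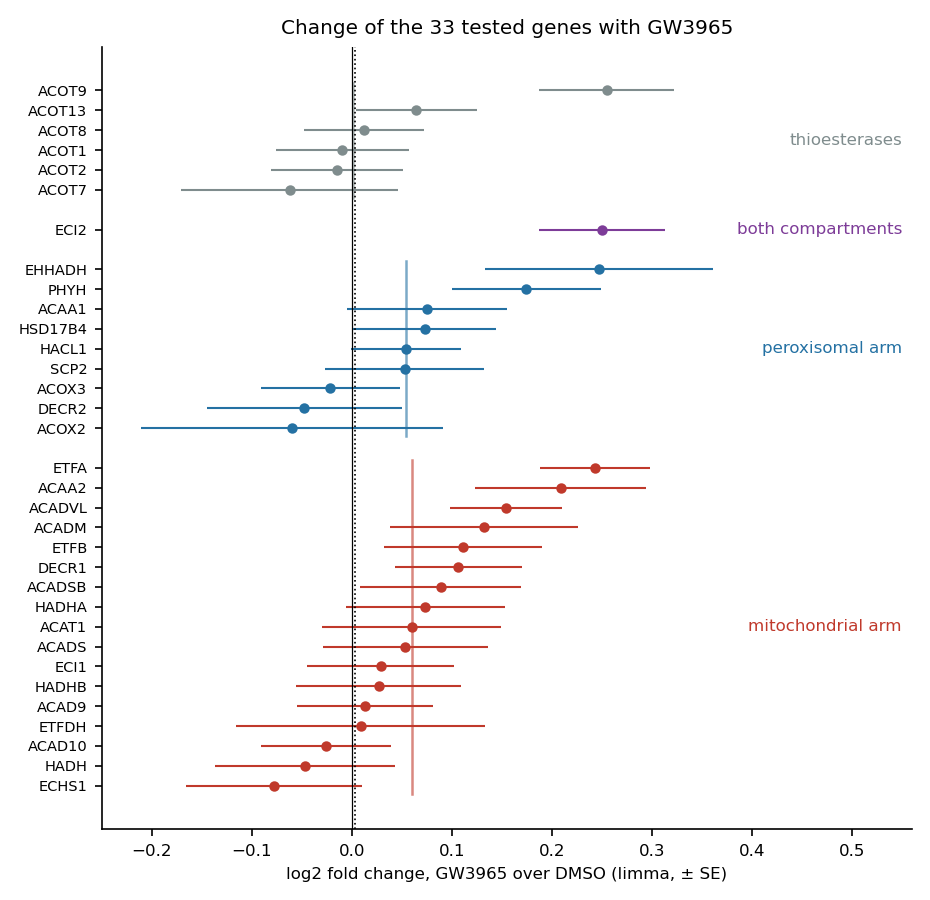
Log2 fold change of GW3965 over DMSO with its standard error from limma for the 33 tested genes, grouped and coloured by arm, with coloured lines at the median of an arm and a dotted line at the median of all tested genes (0.00). ETFA, ECI2, ACOT9 and EHHADH lie near 0.25 and the lowest gene, ECHS1, at -0.08.

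Both arms had small median fold changes that lay close to each other. In the mitochondrial arm 14 of 17 tested genes had a fold change above 0 and 3 below, with a median log2 fold change of 0.06. In the peroxisomal arm 6 of 9 were above 0 and 3 below, with a median of 0.05. The 5 core genes of that arm (ACOX2, ACOX3, EHHADH, HSD17B4 and DECR2) had 2 above 0 and 3 below, with a median of -0.02. Its other genes, the thiolases ACAA1 and SCP2 and the alpha-oxidation genes PHYH and HACL1, were all above 0. Over all tested genes, 51.1% were above 0 and the median was 0.00. The mitochondrial median minus that of all genes lay between 0.03 and 0.08 in the 24 alternative fits, and the peroxisomal one between 0.04 and 0.07. With libraries scaled to equal sums, the median of all genes itself was 0.14, both arm medians were 0.19 and all 9 members below 0 turned above it. Per library, the median deviation of an arm had an SD within groups of 0.06 (mitochondrial) and 0.04 (peroxisomal), about the size of these medians. Among the 6 thioesterases 3 were above 0 and 3 below, with a median of 0.00.

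Summed over its 18 genes, the mitochondrial arm reached 192, 204, 209, 224 and 193 RPKM in the DMSO libraries and 198, 193, 217, 216 and 213 RPKM in the GW3965 libraries. The 9 peroxisomal genes summed to 34.6, 33.8, 31.9, 33.5 and 31.7 RPKM in DMSO and 34.2, 33.6, 34.3, 35.4 and 35.8 RPKM with GW3965. The peroxisomal sums overlapped, as the 3 lowest treated libraries lay within the range of the controls. As a share of both sums, the peroxisomal arm held 14.0 ± 0.907% (SD, n = 5) in DMSO and 14.3 ± 0.468% with GW3965, a difference of 0.369 percentage points that is smaller than either SD. It turned to -0.198 points when ECHS1 and HACL1, the most abundant gene of each arm, were left out. With ECI2, ACAD11 and AMACR counted as peroxisomal, the difference was 1.05 points, which is larger than either SD. The shares were then 18.5 ± 1.02% (SD, n = 5) in DMSO and 19.6 ± 0.457% with GW3965, and the groups still overlapped. Of these added genes, ECI2 had by far the highest RPKM.

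**Figure D4:**
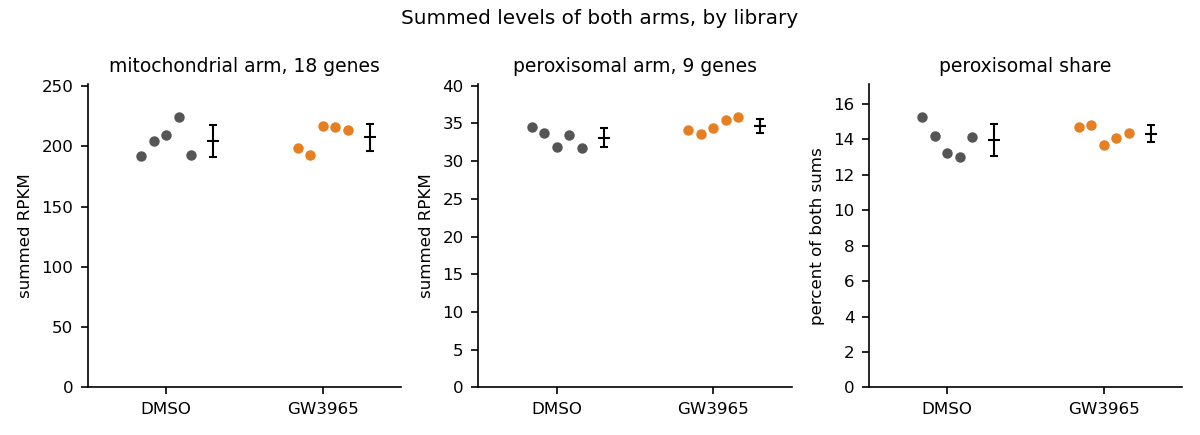
Summed RPKM of the 18 mitochondrial and the 9 peroxisomal genes and the peroxisomal share of both sums, 1 point per library with the mean ± SD of each group beside them and axes from 0. DMSO and GW3965 libraries overlap in all 3 panels, and the share lies between 13.0 and 15.3% in every library.

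In some members the 3 libraries that stood apart lay together at one end, whatever their treatment. In ECHS1 and ACOT7 these 3 libraries were all below the other 7, and in HSD17B4 and ACOT13 all above. Of all tested genes, 11.8% had the 3 below and 5.97% above, against 2 of 33 members (6.06%) each way. Across the 10 libraries the correlation of a gene's log2 level with the component ran from -0.967 for ACOT7 and -0.944 for ECHS1 to 0.801 for ETFDH. This is a description, since the component was computed from the same libraries over genes that may include these. For the 4 members without overlap between groups, the correlations were 0.156 (ETFA), 0.286 (ACADVL), -0.344 (ECI2) and -0.325 (ACOT9). The part of the component in their fold changes was not tested beyond the fits given next.

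With the component as a covariate in limma, an alternative added after the data were seen, 2 members passed the threshold. These were ECI2 (log2 fold change 0.26, adjusted p = 0.0239) and ACOT9 (0.27, adjusted p = 0.0458), beside 0.716% of all tested genes (146 genes). ETFA had an adjusted p of 0.0649 in the same limma fit. Without the 3 libraries, 0 members passed it. The call for ECI2 and ACOT9 thus rests on this one setting.

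**Figure D5:**
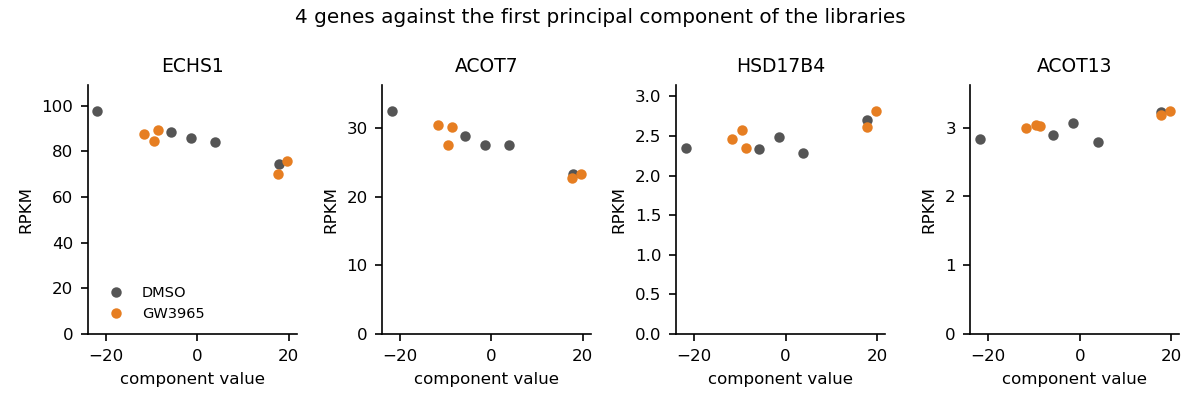
RPKM of ECHS1, ACOT7, HSD17B4 and ACOT13 against the first principal component of the reads, 1 point per library with DMSO in grey and GW3965 in orange and RPKM axes from 0. The 3 libraries at component values above 17 (DMSO replicate 1 and GW3965 replicates 1 and 2) are the lowest in ECHS1 and ACOT7 and the highest in HSD17B4 and ACOT13.

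Other genes of the pathway showed no called change either. Of 44 genes for peroxisome biogenesis, peroxisomal transport, ketone bodies, propionate, malonyl-CoA and the regulators of the pathway, 40 were tested, and 0 passed the adjusted threshold in limma in either direction. At an unadjusted limma p under 0.05, 1 of them was higher and 0 were lower. Of all 20402 tested genes, 946 (4.64%) were higher and 481 lower at that level, so few were to be found among 40 genes. Of the 40, 20 had a fold change above 0 and 20 below, with a median of -0.01. ACACB, which makes the malonyl-CoA that restrains mitochondrial import, was among those above 0, with a log2 fold change of 0.14 ± 0.063 (SE; adjusted p = 0.720 in limma) from 2.94 ± 0.208 RPKM in DMSO. Of those below 0, PEX11G, a factor of peroxisome division, and PPARD, a member of the PPAR family, had the lowest p, with log2 fold changes of -0.16 ± 0.092 and -0.12 ± 0.080 (SE; adjusted p = 0.816 and 0.843 in limma). Below the filter were, among others, ABCD2, PPARGC1A and MLYCD, which averaged 0.00257, 0.00292 and 0.406 RPKM.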

How the data were processed

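Total RNA of PC3 cells, depleted of ribosomal RNA, was sequenced by the authors as strand-specific libraries with single reads of 50 bases, and the samples were assigned to DMSO or GW3965 by their titles. The authors' processing notes name cutadapt, HISAT2 2.1.0, HTSeq 0.11.2, DESeq2 1.22.2 and hg38. The paper's methods name a mouse genome, whereas all gene identifiers in the table are human. The strand setting of the counting is not given in the sources used here. The authors deposited RPKM values (reads per kilobase of gene, scaled to library size) for 62656 genes, 15119 of them 0 in every library. Whole reads came out of 99.9974% of the values above 0 (tolerance 0.0001 of a read), and the authors' scaling of each library equalled its median-of-ratios factor. Reads were not tagged by molecule.

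Differences were tested two-sided with limma (version 3.58.1, R 4.3.3; lmFit, eBayes with a trend) on log2(RPKM + 0.1). The 20402 genes that averaged 0.5 RPKM or more were tested, p-values were adjusted over all of them (Benjamini-Hochberg), and the threshold was 0.05. Fold changes are on the log2(RPKM + 0.1) scale, which understates changes of low genes. Voom on the recovered reads was an alternative, and called 63 genes, while the deposited unit, RPKM, set the choice of the main test. Single genes were also compared by a two-sided exact permutation test over 252 labellings (smallest p 0.00794), 36 genes in all, and these p-values are not adjusted. The procedure was also run on simulated data, but how many changes of the sizes seen here it finds is not reported here. Coordinates and overlaps are those of GENCODE 29 (GRCh38), and promoters those of RefSeq GRCh38.p14. The members and all gene lists were chosen with earlier results of these data known. Every member is named. Values in every library are given for the 8 members of lowest unadjusted p, the most abundant of each group of enzymes, ACOT1 and ACOT2, and members below the filter. Other pathway genes are named if among the 2 of lowest p in a direction, and those below the filter were named after their values were seen. Some of the genes that these rules select are not reported here.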

Additional observations from a re-analysis of the deposited data

Results flagged for a closer look

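In 4 of 72 groups of 5 libraries (36 genes, 2 groups each), 1 library lay farther from the other 4 than Dixon's test allows for groups of 5, on the log2(RPKM + 0.1) scale. Chance flags about 1 in 20 groups, or 3.6 of 72. ACADVL in DMSO replicate 5 was 24.2 RPKM, against 27.0 to 27.6 RPKM in the other controls (gap over range 0.814). Without that library its log2 fold change was 0.12, with an adjusted p of 0.86 in limma. ECI2 in DMSO replicate 4 was 13.7 RPKM, against 12.8 to 13.0 RPKM (0.761), on the side of the treated libraries. ACOX2 in GW3965 replicate 1 was 0.931 RPKM, against 1.34 to 1.48 RPKM (0.779). ACAD11 in GW3965 replicate 4 was 0.0168 RPKM, from 3 reads, against 0.129 to 0.152 RPKM (0.872).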

How the results depend on the processing

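The absence of called members held under 23 of the 24 alternatives, and ended where the fit took in the component that sets the 3 libraries apart, which called 2 (ECI2 and ACOT9). Over all genes, 32 were called in the main test and 146 with that covariate, 63 by voom on the recovered reads, 56 with library weights, 21 with no filter, 20 without a trend, 18 without the 3 libraries that stood apart and 16 with the replicate block. Same-numbered libraries deviated together, with correlations over 0.1, in only 2 of 5 pairs (-0.138 to 0.160), so the numbers were not taken to pair the samples, and the block called 0 members. Leaving out 1 library gave 17 to 38 called genes, with the fewest without DMSO replicate 3 (18) or GW3965 replicates 2 (17), 3 (19), 4 (17) or 5 (21). The arm medians ranged from 0.03 to 0.09 (mitochondrial) and 0.04 to 0.07 (peroxisomal) when 1 library was left out, the lowest without DMSO replicate 5 in both, and the mitochondrial one was 0.09 without the 3 libraries that stood apart. The difference in peroxisomal share was then 0.128 to 0.697 points, lowest without DMSO replicate 4 and highest without DMSO replicate 1. Scaling to equal sums moved the median of all genes to 0.14 and the arm medians to 0.19 (mitochondrial, 0.1948) and 0.19 (peroxisomal, 0.1903), that is 0.06 and 0.05 above all genes.

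Of 33 tested members 18 kept their sign in every alternative, and the other 15 had log2 fold changes of at most 0.0783 in size. Equal sums turned ACAD10 to 0.11, ACOT1 to 0.13, ACOT2 to 0.12, ACOT7 to 0.075, ACOX2 to 0.067, ACOX3 to 0.11, DECR2 to 0.084, ECHS1 to 0.059 and HADH to 0.085. Library weights turned ACAD9 to -0.0086, ACOT1 to 0.034, ACOT2 to 0.029, ACOT7 to 0.0076, ACOX2 to 0.015, ACOX3 to 0.0093 and ETFDH to -0.0098. Without the 3 libraries that stood apart, ACAD9 was -0.039, ACOT1 0.049, ACOT2 0.035, ACOT7 0.015, ACOT8 -0.018 and ETFDH -0.011. A covariate from the 500 most variable genes turned HADHB to -0.0079, the component of the reads ETFDH to -0.0026, and quantile normalization ACOT8 to -0.0034. Leaving out 1 library gave ranges across 0 for ACAD9 (-0.031 to 0.034), HADHB (-0.031 to 0.085), HADH (-0.088 to 0.0043), ECI1 (-0.015 to 0.058), ETFDH (-0.017 to 0.033), ACOX2 (-0.11 to 0.050), ACOX3 (-0.054 to 0.019), SCP2 (-0.0077 to 0.093), ACOT1 (-0.055 to 0.017), ACOT2 (-0.062 to 0.015) and ACOT8 (-0.014 to 0.046). The causes were not tested. Depth limits ACADL, ACAD11 and AMACR, which had at most 46 reads in a library.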
